A study of Homo sapiens with 32 samples.

Results

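The proteasome is built from the products of the PSMA, PSMB, PSMC, PSMD and PSME genes, and 43 such genes had reads among 14341 named genes with a read in this SLAM-seq series. The members were taken by symbol alone, every gene whose symbol is PSMA, PSMB, PSMC, PSMD or PSME followed by digits, and for each gene the transcript row that had most reads in the sum of the 32 libraries was used. They fall into 7 genes of the 20S α ring (PSMA1 to PSMA7), 7 of the constitutive 20S β ring (PSMB1 to PSMB7), 5 immunoproteasome and tissue-specific subunits (PSMB8, PSMB9, PSMB10, PSMB11 and PSMA8), 6 ATPases (PSMC) and 11 non-ATPases (PSMD) of the 19S particle, 3 chaperones of 19S base assembly (PSMD5, PSMD9 and PSMD10) and 4 activators (PSME1 to PSME4). Of the 43, 39 had enough reads to be tested for total reads and 38 for labelled reads.

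In SLAM-seq, cells briefly take up 4-thiouridine (s4U), a modified uridine that sequencing shows as T-to-C conversions. A read with conversions, a labelled read, is taken to come from RNA made during the pulse. No library lacked s4U, so the background of such reads from sequencing errors or variants could not be measured. It weighs most where labelled percentages are low. The number of conversions that makes a read labelled is not given in the sources used here. The libraries read 3′ ends in HCT116, a human cell line from a colorectal carcinoma, here with OsTIR1 under a doxycycline-inducible promoter. OsTIR1 is a plant receptor that with auxin sends degron-tagged proteins to the proteasome. The tagged line has the mini degron mAID on both alleles of IGF2BP3, an RNA-binding protein, and the parental line has OsTIR1 without the tag. Whether the tagged line is a single clone is not given in the labels, and the auxin-driven removal itself runs through the proteasome. All wells received doxycycline at 200 ng/mL for 24 h and s4U at 250 µM for 2 h. Stressed wells received tunicamycin, which blocks N-glycosylation and so sets up endoplasmic reticulum stress, at 5 µg/mL for 5 h, and unstressed wells received DMSO. Wells with auxin received it at 500 µM for 9 h, and the others, called vehicle here, did not. The 8 groups, each of 4 wells, were stressed tagged cells with auxin, unstressed tagged cells with auxin, stressed tagged cells with vehicle, unstressed tagged cells with vehicle, and the same 4 of the parental line.

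As background, the 20S core is a barrel of outer α rings, which form the gate, and inner β rings, in which PSMB5, PSMB6 and PSMB7 hold the catalytic sites. Under interferon, PSMB8, PSMB9 and PSMB10 take the place of the catalytic subunits and form the immunoproteasome. The 19S particle binds ubiquitylated proteins, removes the ubiquitin and unfolds them with its ring of ATPases, while the PSME proteins open the core in other ways. Transcription of many subunit genes is known to be driven together by NFE2L1 (also called NRF1), a factor made at the endoplasmic reticulum. It binds antioxidant response elements when proteasome activity falls. CCAAT boxes bound by NF-Y lie in many of these promoters.

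Because that shared control is the reason the subunits are often read as a group, the promoters of 3 of the members on which the results below turn are shown as examples. They run from 250 bases before to 50 bases after the RefSeq start on GRCh38.p14, 5′ to 3′ on the gene's strand, and capitals mark matches on either strand to the core of the antioxidant response element (TGACNNNGC) or to CCAAT. PSMA5 had more labelled reads in stressed than unstressed parental cells with vehicle, while PSMB4 and PSMD3 had fewer labelled reads under stress, PSMB4 without a match and PSMD3 with matches to both motifs.
PSMA5, chr1:109426399-109426698, minus strand: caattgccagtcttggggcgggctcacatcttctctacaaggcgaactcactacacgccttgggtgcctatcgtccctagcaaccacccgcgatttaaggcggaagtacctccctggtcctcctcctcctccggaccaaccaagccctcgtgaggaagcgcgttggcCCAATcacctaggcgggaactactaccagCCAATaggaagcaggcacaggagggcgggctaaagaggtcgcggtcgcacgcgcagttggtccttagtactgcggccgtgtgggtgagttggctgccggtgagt
PSMB4, chr1:151399323-151399622, plus strand: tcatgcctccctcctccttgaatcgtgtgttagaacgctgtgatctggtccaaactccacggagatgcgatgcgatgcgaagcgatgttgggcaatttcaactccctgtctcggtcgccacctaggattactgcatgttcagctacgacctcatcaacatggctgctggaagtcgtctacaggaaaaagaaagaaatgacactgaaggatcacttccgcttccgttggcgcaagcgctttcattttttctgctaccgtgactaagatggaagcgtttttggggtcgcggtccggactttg
PSMD3, chr17:39980557-39980856, plus strand: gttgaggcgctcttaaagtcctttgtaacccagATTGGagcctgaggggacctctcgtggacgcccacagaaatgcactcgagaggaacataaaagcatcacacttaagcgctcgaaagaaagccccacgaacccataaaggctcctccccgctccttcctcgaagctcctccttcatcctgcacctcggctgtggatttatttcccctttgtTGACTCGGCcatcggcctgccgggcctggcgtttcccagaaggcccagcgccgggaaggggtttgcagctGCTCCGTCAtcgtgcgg
PSMA5 holds 2 CCAAT matches and no match to the element core, PSMB4 holds neither, and PSMD3 holds 2 matches to the element core and 1 to CCAAT. RefSeq promoters were found for 38 of the 43 members and not for PSMA7, PSMB1, PSMB6, PSMB7 and PSMD4. Among members not shown, PSMD2 had fewer labelled reads under stress in 3 comparisons, and PSMD11 and PSMB5 in 2 each. The promoters of PSMD2 and PSMD11 hold neither motif, and that of PSMB5 holds 1 CCAAT match. The element core lay in 11 of the 38 (28.9%), against 13.6% of 27305 promoters of the same length, and CCAAT in 18 (47.4%), against 35.7%; in no member did matches to the 2 motifs overlap. A match describes letters and is not evidence of binding.

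Per library, 0.987 M to 6.98 M reads fell in genes with a symbol, and 8.88% to 13.5% of these were labelled. The smallest library was replicate 1 of stressed parental cells with auxin; the other 31 held at least 2.55 M. That library also stood apart in T coverage (15.1 T positions per read, against 20.3 to 24.1 in the others) and in the share of reads on transcripts with no gene symbol (43.5%, against 36.9% to 38.3%). Counts of called members that involve it are given with and without it below, and so are counts it moves elsewhere, because all 32 libraries share 1 estimate of the spread. The stress label showed in every comparison in HSPA5, the main endoplasmic reticulum chaperone, whose total reads had log2 fold changes of 2.47 to 2.70 (edgeR adjusted p of at most 9.14e-17). DDIT3, a stress-induced transcription factor, had 5.10 to 5.30 (adjusted p of at most 9.33e-18). The mRNA of IGF2BP3, which does not report removal of the protein, averaged 145 to 183 CPM over the 8 groups. Epithelial genes (EPCAM, KRT8, KRT18, KRT19, CLDN4 and CDH1) had reads, and VIL1 had 0. Of the markers of blood, vessel and stromal cells PTPRC, CD3E, COL1A2 and CDH5 had 0 reads, PECAM1 6, PDGFRB 14 and VWF 37 in all 32 libraries. COL1A1 averaged 21.5 to 41.6 CPM over the groups.

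The question put first is what tunicamycin did to proteasome mRNAs. Labelled reads, taken as newly made RNA, were a smaller part of proteasome reads in stressed than in unstressed cells in both lines, with and without auxin. Proteasome reads as a part of all gene reads were lower by less. Summed over the 43 members, 5.60 ± 0.252% of reads were labelled in stressed and 8.10 ± 0.499% in unstressed tagged cells with auxin (mean ± SD, n = 4 libraries, here and below). With vehicle the tagged line had 6.33 ± 0.210% in stressed and 8.60 ± 0.585% in unstressed cells. Parental cells with auxin had 5.53 ± 1.19% in stressed and 8.62 ± 0.525% in unstressed wells, and parental cells with vehicle 6.26 ± 0.530% and 8.79 ± 0.597%. In each of the 4 comparisons every stressed library lay below every unstressed one. The widest group was stressed parental cells with auxin, where the smallest library had 3.82% and the other 3 had 5.72% to 6.54%.

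The labelled percentage of reads pooled over all genes was lower under stress as well, by less: 11.1% in stressed and 12.1% in unstressed tagged cells with auxin, 11.9% and 12.6% with vehicle, 10.9% and 12.8% in parental cells with auxin, and 11.8% and 12.9% with vehicle. This pool weights genes by their reads. With each gene tested counted once, the all-gene median was 14.1% in stressed and 16.4% in unstressed tagged cells with auxin, beside 5.63% and 8.45% for the members. In parental cells with vehicle it was 15.4% and 18.95%, beside 6.79% and 9.86%. Conversions per covered T there had medians of 0.984% and 1.55% over all genes, beside 0.425% and 0.781%. A share of all labelled reads sets the library-wide labelled percentage aside, but it also falls when other genes gain labelled reads. By that share the members took 0.515 ± 0.0276% in stressed and 0.726 ± 0.0208% in unstressed tagged cells with auxin, and 0.539 ± 0.00853% and 0.736 ± 0.0353% with vehicle. In parental cells they took 0.481 ± 0.0705% and 0.706 ± 0.0184% with auxin, and 0.527 ± 0.0298% and 0.734 ± 0.0185% with vehicle. No stressed library overlapped the unstressed libraries of its own comparison in this share. The members' summed labelled reads, scaled to the labelled library as in the tests below, were separate in each comparison too. They came to 5489 ± 267 CPM in stressed and 6906 ± 196 CPM in unstressed tagged cells with auxin. In parental cells with vehicle they came to 5626 ± 311 and 7109 ± 211 CPM. The members' share of all gene reads, old and new, was lower under stress as well, by less: 1.01 ± 0.00794% in stressed and 1.08 ± 0.0187% in unstressed tagged cells with auxin, and 0.997 ± 0.0328% in stressed and 1.08 ± 0.0134% in unstressed parental cells with vehicle. The other comparisons lay near these, and in this share too no stressed library overlapped the unstressed ones of its comparison. In scaled CPM of total reads, summed over the members, stressed and unstressed libraries did overlap in both auxin comparisons. The sums were 10040 ± 58.8 CPM in stressed and 10340 ± 315 CPM in unstressed tagged cells with auxin. In parental cells with auxin they were 10090 ± 686 and 10090 ± 416 CPM. With vehicle the summed CPM did not overlap in either line. Reads are counted per library, so fewer cells and less RNA per cell cannot be told apart. These sums carry no test.

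**Figure D1:**
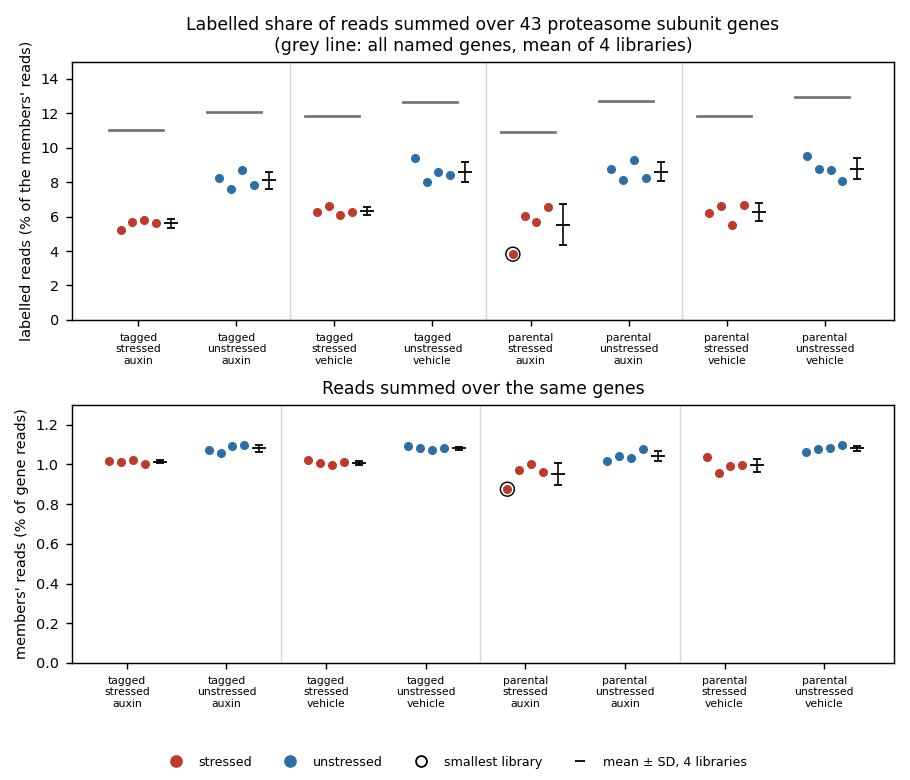
Each point is 1 library, in 8 groups of 4. The upper panel gives the percentage of the 43 members' summed reads that were labelled, with the mean over all genes as a grey line, and the lower panel the members' percentage of all gene reads. In the upper panel the stressed groups average 5.53% to 6.33% and the unstressed groups 8.10% to 8.79%.

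The subunit classes are given here in tagged cells with auxin and in parental cells with vehicle. The 7 members of the constitutive β ring together took 0.119 ± 0.00465% of labelled reads in stressed and 0.182 ± 0.00737% in unstressed tagged cells with auxin, and 0.125 ± 0.00802% and 0.198 ± 0.00392% in parental cells with vehicle. The α ring took 0.0966 ± 0.0122% in stressed and 0.135 ± 0.0137% in unstressed tagged cells with auxin, and 0.0996 ± 0.00715% and 0.123 ± 0.0110% in parental cells with vehicle. The 19S ATPases took 0.0624 ± 0.00538% in stressed and 0.0875 ± 0.00573% in unstressed tagged cells with auxin, and 0.0636 ± 0.00477% and 0.103 ± 0.0128% in parental cells with vehicle. The 19S non-ATPases took 0.175 ± 0.0125% in stressed and 0.259 ± 0.0115% in unstressed tagged cells with auxin, and 0.179 ± 0.0132% and 0.245 ± 0.0131% in parental cells with vehicle. The 3 base chaperones took 0.0284 ± 0.00424% in stressed and 0.0248 ± 0.00385% in unstressed tagged cells with auxin, and 0.0264 ± 0.00254% and 0.0234 ± 0.00157% with vehicle. In parental cells they took 0.0206 ± 0.00810% in stressed and 0.0249 ± 0.00218% in unstressed wells with auxin, and 0.0241 ± 0.000681% and 0.0230 ± 0.00107% with vehicle. Their stressed mean was the lower one in parental cells with auxin, the group that holds the smallest library, and the higher one in the other 3 comparisons. In parental cells with auxin, stressed and unstressed libraries overlapped for the α ring (0.06275% to 0.111% against 0.108% to 0.124%). They also did for the 19S ATPases (0.05605% to 0.0970% against 0.0770% to 0.0945%). The 4 activators took 0.0317 ± 0.00398% in stressed and 0.0366 ± 0.00408% in unstressed tagged cells with auxin, and 0.0343 ± 0.00214% and 0.0398 ± 0.00458% in parental cells with vehicle. The 5 immunoproteasome and tissue-specific subunits took 0.00174 ± 0.000504% and 0.00155 ± 0.000350%, and 0.000824 ± 0.000328% and 0.00264 ± 0.00168%, in the same order. Whether the classes differ from one another was not tested.

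Gene by gene, labelled reads were tested against the typical gene with edgeR's quasi-likelihood test over all 32 libraries, with Benjamini-Hochberg adjustment over the 8980 genes tested; every adjusted p below is of this kind, with a threshold of 0.05. Errors given with log2 fold changes are standard errors of the fit. In tagged cells with auxin, 8 of the 38 members had fewer labelled reads under stress and 0 had more, where 2.82% of all genes tested fell and 6.94% rose. In tagged cells with vehicle, 5 fell and 0 rose, against 2.49% and 6.88% of all genes. Parental cells with auxin had 4 lower and 0 higher members, against 3.45% and 7.91% of all genes, and parental cells with vehicle 12 lower and 1 higher, against 7.04% and 10.1%. The share of members that fell was thus above that of all genes in each comparison. The members' median log2 fold change was -0.29 (all genes -0.04) in tagged cells with auxin, -0.27 (all genes -0.03) in tagged cells with vehicle, -0.22 (all genes -0.02) in parental cells with auxin and -0.22 (all genes -0.03) in parental cells with vehicle. No library enters more than 1 of these 4 comparisons, but all 4 share 1 estimate of the spread. PSMB4 and PSMB6 fell in all 4 of them, PSMB7 and PSMD2 in 3, and PSMA7, PSMB5, PSMD3 and PSMD11 in 2, while 7 further members fell in 1 and the other 23 in none. Estimates were below 0 in all 4 comparisons for 22 of the 38 members. These were 7 of 7 in the β ring, 5 of 7 in the α ring, 2 of 5 ATPases, 7 of 11 non-ATPases, 1 of 4 activators and 0 of 3 base chaperones. How many of all genes fell in several comparisons, or lay below 0 in all 4, was not counted, so these recurrences have no background beside them. Without the smallest library, 9 members fell in tagged cells with auxin (3.99% of all genes in that refit), 6 in tagged cells with vehicle (3.8%), 6 in parental cells with auxin (4.54%) and 12 in parental cells with vehicle (9.19%), where 2 rose (12.4%). Leaving out replicate 4 of stressed tagged cells with auxin brought the count in its comparison to 4. Scaled by total reads, and so not relative to the typical labelled gene, the median of all genes itself lay at -0.24 to -0.31 in the 4 comparisons, and that of the members at -0.47 to -0.53. On that scale 17 members fell in tagged cells with auxin, 11 in tagged cells with vehicle, 15 in parental cells with auxin and 20 in parental cells with vehicle, where PSMA5 rose. More of all genes passed on it too. In the same order 1267, 1142, 1711 and 2365 of the 8980 were called in either direction.

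**Figure D2:**
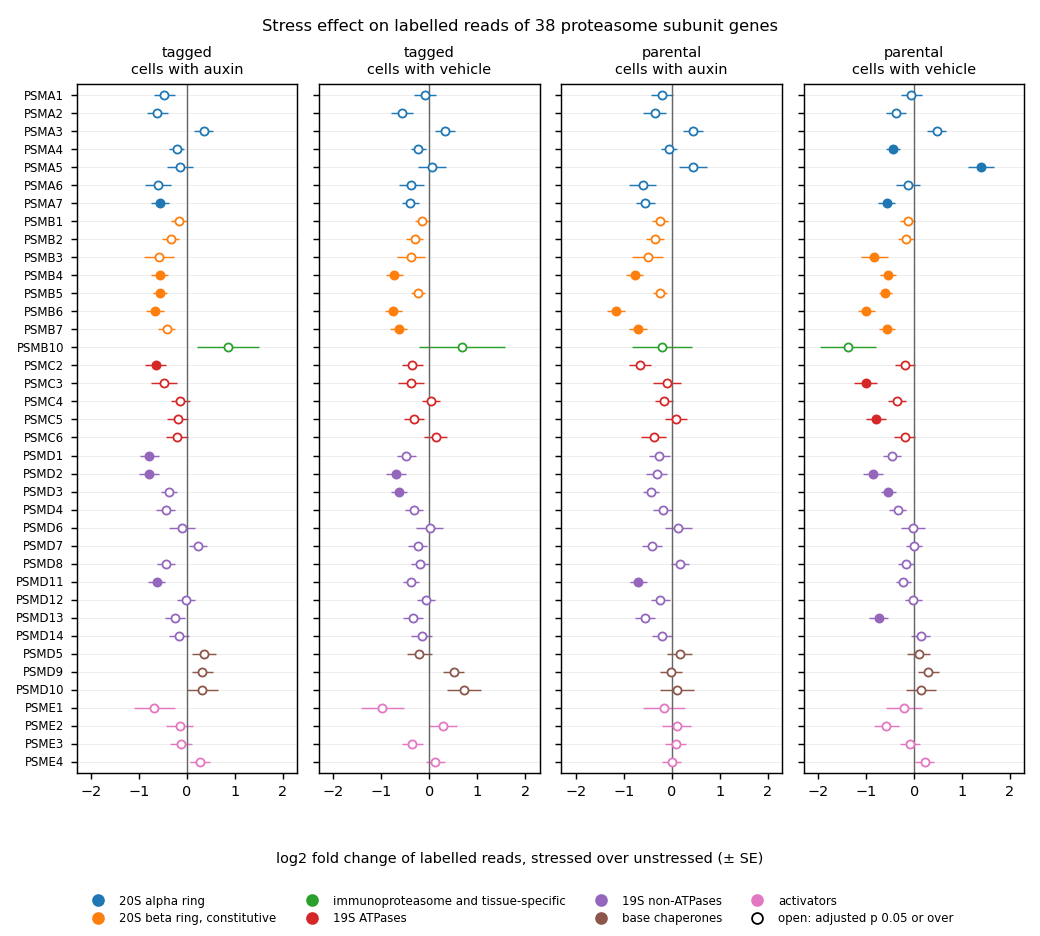
Each point is 1 of 38 members, with its log2 fold change of labelled reads (stressed against unstressed) and standard error on the horizontal axis, in a panel for each of the 4 stress comparisons and coloured by subunit class. Filled points passed an edgeR adjusted p of 0.05; the filled points lie left of 0 except PSMA5 in parental cells with vehicle.

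The catalytic subunits of the core were among those that fell. PSMB6, the β1 subunit with caspase-like activity, lies at chr17:4796164-4798495 on hg38 and was counted over a 3′ region of 179 bases with 46 T. It had 2.85, 2.78, 2.92 and 3.16% in stressed and 5.83, 4.77, 4.36 and 5.77% in unstressed tagged cells with auxin, as labelled percentages of replicates 1 to 4. With vehicle, PSMB6 had 4.37, 3.26, 3.26 and 2.84% in stressed and 7.49, 5.32, 6.53 and 4.92% in unstressed tagged cells with vehicle. In both, no stressed library reached the lowest unstressed one. The parental line had for PSMB6 2.66, 2.75, 2.84 and 2.20% in stressed and 7.19, 6.31, 8.92 and 6.30% in unstressed parental cells with auxin. With vehicle it had 3.34, 4.19, 2.10 and 3.37% in stressed and 6.53, 6.62, 5.44 and 5.95% in unstressed parental cells with vehicle, and again the groups did not overlap. The log2 fold change of labelled PSMB6 reads was -0.67 ± 0.19 (adjusted p = 0.00994) in tagged cells with auxin, -0.75 ± 0.18 (adjusted p = 0.00158) in tagged cells with vehicle, -1.16 ± 0.19 (adjusted p = 2.88e-06) in parental cells with auxin and -0.997 ± 0.17 (adjusted p = 5.52e-06) in parental cells with vehicle. The first of these calls was lost without replicate 4 of unstressed tagged cells with auxin (adjusted p = 0.1), and the other 3 held in each refit that left out 1 library. Total PSMB6 reads passed the test in none of the 4. The largest total change was -0.33 ± 0.11 (adjusted p = 0.0536) in parental cells with vehicle, where stressed libraries had 537, 461, 531 and 524 CPM and unstressed libraries 692, 701, 578 and 609 CPM.

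PSMB7, the β2 subunit with trypsin-like activity (chr9:124353465-124415442, counted over 133 bases with 28 T), was the most abundant member in unstressed parental cells with vehicle at 786 ± 71.9 CPM, a 3′-end count that does not depend on transcript length. Its labelled percentages were 2.59, 3.49, 2.54 and 2.98% in stressed and 4.37, 4.66, 4.42 and 4.92% in unstressed tagged cells with auxin. With vehicle the tagged line gave 3.07, 3.44, 2.94 and 3.29% in stressed and 6.21, 4.93, 5.50 and 5.14% in unstressed tagged cells with vehicle. All stressed libraries were below all unstressed ones in both, and this was also so in the parental line, which had 1.52, 2.56, 3.21 and 2.75% in stressed and 5.54, 4.71, 5.15 and 5.16% in unstressed parental cells with auxin. Parental wells without auxin had 3.80, 3.10, 2.64 and 3.17% in stressed and 4.31, 4.60, 4.91 and 5.01% in unstressed parental cells with vehicle. Labelled PSMB7 reads fell with log2 fold changes of -0.64 ± 0.17 (adjusted p = 0.00624) in tagged cells with vehicle, -0.71 ± 0.18 (adjusted p = 0.00418) in parental cells with auxin and -0.56 ± 0.17 (adjusted p = 0.0114) in parental cells with vehicle. Without either replicate 2 of stressed parental cells with vehicle or replicate 4 of unstressed parental cells with vehicle (adjusted p of 0.0722 to 0.0864) the call in parental cells with vehicle was lost. In tagged cells with auxin PSMB7 stood at -0.42 ± 0.18 (adjusted p = 0.13) and did not pass.

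PSMB5, the β5 subunit with chymotrypsin-like activity and the main target of proteasome inhibitors used in the clinic (chr14:23025851-23035220, 503 bases with 146 T), fell in 2 of the 4. Its labelled percentages were 3.59, 4.72, 5.02 and 6.90% in stressed and 7.88, 7.17, 9.26 and 8.04% in unstressed tagged cells with auxin, with a log2 fold change of -0.56 ± 0.15 (adjusted p = 0.00488). Parental cells without auxin gave 5.93, 7.26, 6.28 and 7.59% in stressed and 11.6, 10.5, 10.5 and 7.54% in unstressed parental cells with vehicle, a change of -0.60 ± 0.14 (adjusted p = 0.000696). The first set of groups did not overlap, and in the second replicate 4 of the unstressed wells lay just under the highest stressed well. PSMB5 stood at -0.23 ± 0.14 (adjusted p = 0.372) in tagged cells with vehicle and -0.24 ± 0.15 (adjusted p = 0.339) in parental cells with auxin, and neither passed.

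PSMB4, a non-catalytic β subunit needed for assembly of the ring (chr1:151399573-151401937, 107 bases with 37 T), fell in labelled reads in all 4 comparisons. It had 3.23, 4.26, 6.65 and 4.84% in stressed and 6.99, 8.02, 9.35 and 7.87% in unstressed tagged cells with auxin, a log2 fold change of -0.57 ± 0.17 (adjusted p = 0.0216). With vehicle it had 5.82, 4.38, 5.39 and 7.22% in stressed and 10.3, 8.51, 10.9 and 10.3% in unstressed tagged cells with vehicle, a change of -0.73 ± 0.17 (adjusted p = 0.00156). No stressed well reached an unstressed one in the tagged line. In the parental line PSMB4 had 5.42, 5.48, 4.55 and 5.34% in stressed and 9.41, 10.1, 7.50 and 8.76% in unstressed parental cells with vehicle (-0.54 ± 0.16, adjusted p = 0.0135). Parental cells with auxin had 21.2, 4.26, 5.01 and 5.19% in stressed and 9.79, 7.76, 11.0 and 10.2% in unstressed parental cells with auxin (-0.77 ± 0.18, adjusted p = 0.00134). The 21.2% belongs to the smallest library, in which 11 of only 52 PSMB4 reads were labelled (95% Wilson interval 12.2% to 34.0%, counting error only), and its total PSMB4 level was 66.1 CPM, against 337 to 371 CPM in the other 3 wells of its group. Without that library the labelled change of PSMB4 in parental cells with auxin was -0.78 ± 0.18 (adjusted p = 0.000466). The PSMB4 call in tagged cells with auxin was lost without any 1 of replicates 1, 2 and 4 of stressed tagged cells with auxin or replicates 3 and 4 of unstressed tagged cells with auxin (adjusted p of 0.0705 to 0.1). That in parental cells with vehicle was lost without replicate 4 of unstressed parental cells with vehicle (adjusted p = 0.0544). The remaining β subunits were less clear. PSMB3 passed in parental cells with vehicle (-0.83 ± 0.28, adjusted p = 0.0278) and in no other comparison. Its call was lost without any 1 of replicates 1 and 2 of stressed parental cells with vehicle or replicates 1 and 3 of unstressed parental cells with vehicle (adjusted p of 0.0597 to 0.12). PSMB1 and PSMB2 had estimates of -0.14 to -0.35 in the 4 comparisons and passed in none.

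**Figure D3:**
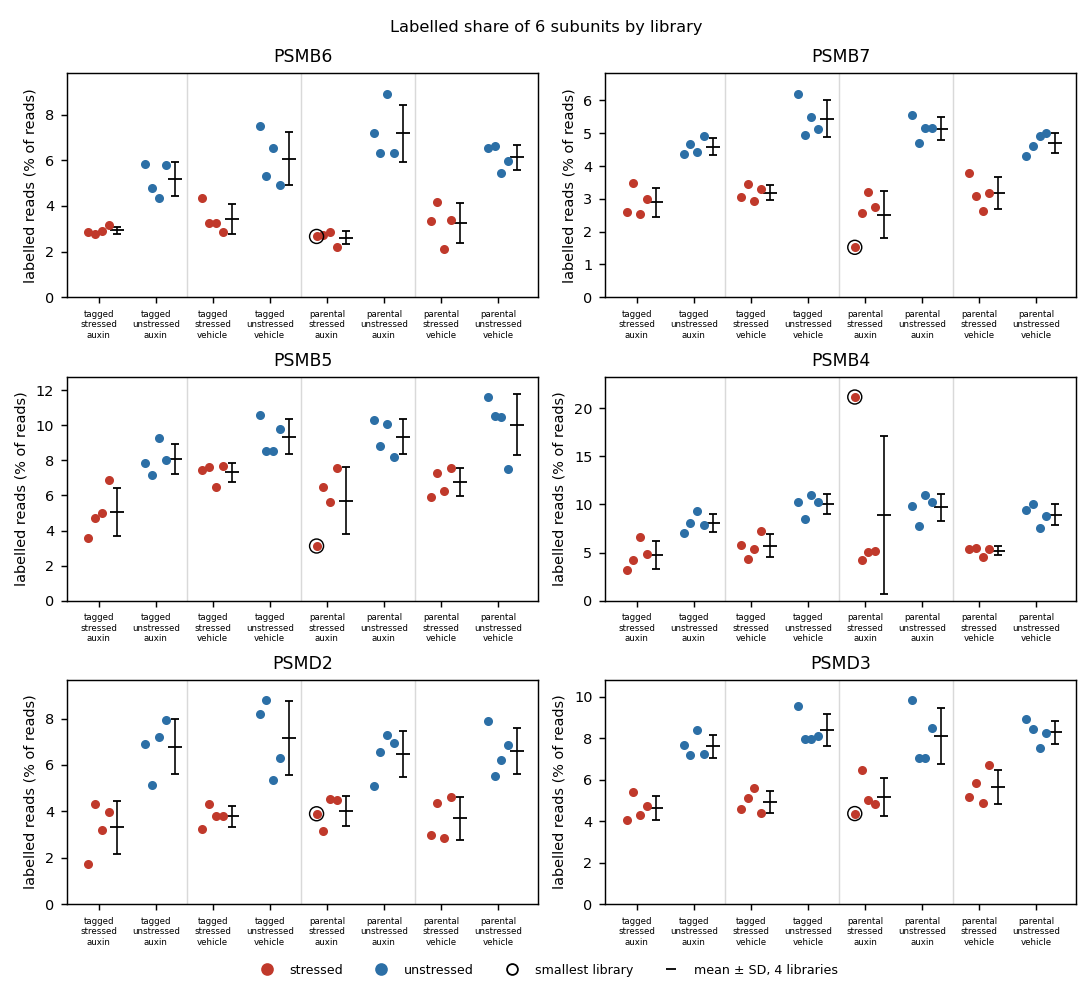
Labelled percentage of PSMB6, PSMB7, PSMB5, PSMB4, PSMD2 and PSMD3 in each of the 32 libraries, with the mean and SD of each group of 4; stressed groups stand left of their unstressed groups, and the smallest library is circled. Stressed libraries lie lower throughout, apart from 1 library at 21.2% for PSMB4 and an overlap for PSMB5 in parental cells with vehicle.

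In the 19S particle the non-ATPases PSMD2 and PSMD3, scaffold proteins of base and lid, and PSMD11, a lid subunit, carried most of the calls. PSMD2 (chr3:184299241-184309050, 164 bases with 44 T) had 1.75, 4.32, 3.19 and 3.97% in stressed and 6.89, 5.15, 7.19 and 7.94% in unstressed tagged cells with auxin (-0.79 ± 0.22, adjusted p = 0.00803 for labelled reads). With vehicle it had 3.22, 4.34, 3.82 and 3.81% in stressed and 8.20, 8.78, 5.35 and 6.32% in unstressed tagged cells with vehicle (-0.70 ± 0.21, adjusted p = 0.0198). The groups were separate in both. Parental cells with vehicle had 2.99, 4.38, 2.84 and 4.62% in stressed and 7.88, 5.52, 6.20 and 6.84% in unstressed parental cells with vehicle for PSMD2 (-0.86 ± 0.20, adjusted p = 0.00123). In parental cells with auxin its labelled percentages were 3.90, 3.17, 4.53 and 4.49% in stressed and 5.08, 6.55, 7.28 and 6.97% in unstressed parental cells with auxin, again separate, while the change in labelled reads was -0.31 ± 0.22 (adjusted p = 0.435). The call of PSMD2 in tagged cells with auxin was lost without either replicate 1 of stressed tagged cells with auxin or replicate 4 of unstressed tagged cells with auxin (adjusted p of 0.0567 to 0.0646). That in tagged cells with vehicle was lost without any 1 of replicate 1 of stressed tagged cells with vehicle or replicates 1, 2 and 4 of unstressed tagged cells with vehicle (adjusted p of 0.0528 to 0.105).

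PSMD3 (chr17:39980807-39997959, 379 bases with 85 T) fell in labelled reads in both vehicle comparisons. In the tagged line its labelled percentages were 4.61, 5.14, 5.60 and 4.38% in stressed and 9.55, 7.95, 7.95 and 8.13% in unstressed tagged cells with vehicle (-0.63 ± 0.16, adjusted p = 0.00504). In the parental line they were 5.15, 5.85, 4.90 and 6.69% in stressed and 8.92, 8.43, 7.55 and 8.25% in unstressed parental cells with vehicle (-0.54 ± 0.16, adjusted p = 0.0097). The groups did not overlap in either, and leaving out replicate 2 of stressed parental cells with vehicle (adjusted p = 0.0603) ended the call in the parental line. With auxin PSMD3 stood at -0.38 ± 0.17 (adjusted p = 0.166) in tagged cells and -0.44 ± 0.17 (adjusted p = 0.0901) in parental cells.

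For PSMD11 (chr17:32444510-32483319, 2688 bases with 877 T) the calls were in the auxin comparisons: labelled percentages were 11.4, 12.5, 11.5 and 10.0% in stressed and 19.2, 14.6, 18.1 and 18.95% in unstressed tagged cells with auxin (-0.63 ± 0.17, adjusted p = 0.00622). Parental cells with auxin had 9.17, 13.5, 12.7 and 13.0% in stressed and 16.4, 17.4, 19.8 and 16.9% in unstressed parental cells with auxin (-0.69 ± 0.17, adjusted p = 0.00312). No stressed library reached the unstressed ones in either. Leaving out replicate 4 of stressed tagged cells with auxin (adjusted p = 0.0532) ended the call of PSMD11 in tagged cells. With the libraries of the comparison fitted alone, the call in parental cells with auxin was lost for PSMD11 (-0.75, adjusted p = 0.11) and for PSMB7 (-0.74, adjusted p = 0.0959). With vehicle it stood at -0.39 ± 0.17 (adjusted p = 0.17) in tagged cells and -0.22 ± 0.17 (adjusted p = 0.379) in parental cells. That a member passed in one comparison and not in another was not tested as a difference, except where named below.

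The other 19S calls in labelled reads came in 1 comparison each. PSMD1, a scaffold of the base, fell in tagged cells with auxin (-0.78 ± 0.20, adjusted p = 0.00358), as did PSMC2, an ATPase (-0.65 ± 0.21, adjusted p = 0.0353). The call of PSMC2 was lost without any 1 of replicates 1 and 4 of stressed tagged cells with auxin or replicates 1 and 2 of unstressed tagged cells with auxin (adjusted p of 0.0657 to 0.2). PSMC3 (-1.01 ± 0.25, adjusted p = 0.0026) and PSMC5 (-0.79 ± 0.20, adjusted p = 0.00304), ATPases of the same ring, and PSMD13, a lid subunit (-0.74 ± 0.20, adjusted p = 0.00401), fell in parental cells with vehicle. PSMD4, a ubiquitin receptor, and PSMD14, the deubiquitylase of the lid, passed in no comparison of labelled reads. The estimates of PSMD4 ran from -0.45 ± 0.20 in tagged cells with auxin to -0.19 ± 0.20 in parental cells with auxin. Those of PSMD14 ran from -0.20 ± 0.21 in parental cells with auxin to 0.14 ± 0.20 in parental cells with vehicle. PSMC4, PSMC6, PSMD6, PSMD7, PSMD8 and PSMD12 passed in none either. PSMC1, the remaining ATPase, had 89 reads in all 32 libraries and was not tested; the annotation holds 13 pseudogene symbols of PSMC1, so reads may be split among copies and its level is uncertain. In all, 20 of the 43 members have at least 1 pseudogene symbol.

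The only rise in labelled reads was in the α ring. PSMA5, the α5 subunit (chr1:109399042-109426448, counted over 2982 bases with 1010 T), had 76.5, 119, 116 and 88.2 labelled CPM (labelled reads scaled to the labelled library) in stressed and 36.4, 47.2, 43.4 and 24.7 labelled CPM in unstressed parental cells with vehicle, a log2 fold change of 1.39 ± 0.28 (adjusted p = 9.43e-05). The lowest stressed value was well above the highest unstressed one. Its total level was 68.4, 109, 72.1 and 70.4 CPM in stressed and 25.1, 30.0, 44.2 and 36.7 CPM in unstressed wells (1.22 ± 0.30, adjusted p = 0.00683), again without overlap, and its labelled share did not pass (0.23 ± 0.28, adjusted p = 0.708). The other 3 comparisons gave changes of labelled PSMA5 reads of -0.14 ± 0.27 (adjusted p = 0.821) in tagged cells with auxin, 0.05 ± 0.29 (adjusted p = 0.957) in tagged cells with vehicle and 0.44 ± 0.29 (adjusted p = 0.37) in parental cells with auxin. The unstressed parental wells with vehicle were the lowest of the 8 groups for PSMA5 at 34.0 ± 8.30 CPM. Stressed tagged cells with auxin had 94.99 ± 23.8 CPM, unstressed tagged cells with auxin 98.2 ± 24.6 CPM, stressed tagged cells with vehicle 50.5 ± 14.6 CPM and unstressed tagged cells with vehicle 47.8 ± 12.1 CPM. Stressed parental cells with auxin had 55.8 ± 32.4 CPM and unstressed parental cells with auxin 77.3 ± 24.2 CPM. The total-read call of PSMA5 and its labelled-read call held in each refit that left out 1 library. The difference between the lines in the stress change with vehicle was -1.35 ± 0.40 (adjusted p = 0.543) for labelled PSMA5 reads and did not pass.

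Elsewhere in the α ring, PSMA7 fell in labelled reads in tagged cells with auxin (-0.56 ± 0.19, adjusted p = 0.0406) and in parental cells with vehicle (-0.58 ± 0.18, adjusted p = 0.0141), and PSMA4 in parental cells with vehicle (-0.45 ± 0.15, adjusted p = 0.0305). Leaving out any 1 of replicates 3 and 4 of stressed tagged cells with auxin or replicates 1, 2 and 3 of unstressed tagged cells with auxin (adjusted p of 0.0537 to 0.236) ended the call of PSMA7 in tagged cells with auxin. In parental cells with vehicle the PSMA7 call was lost without either replicate 3 of stressed parental cells with vehicle or replicate 1 of unstressed parental cells with vehicle (adjusted p of 0.067 to 0.0682). The PSMA4 call there was lost without any 1 of replicates 2 and 3 of stressed parental cells with vehicle or replicates 1, 2 and 4 of unstressed parental cells with vehicle (adjusted p of 0.054 to 0.123), and with no filter on low counts (adjusted p = 0.0856). PSMA3 stood above 0 in all 4 comparisons, at 0.33 to 0.47, without passing. In parental cells with vehicle it passed without the smallest library (0.48 ± 0.18, adjusted p = 0.0431). PSMA1, PSMA2 and PSMA6 were below 0 in all 4 and passed in none.

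The immunoproteasome subunits had few reads in these cells. PSMB10, the subunit that replaces PSMB7, averaged 56.9 ± 11.7 CPM in unstressed parental cells with vehicle, and PSMB9, which replaces PSMB6, 9.89 ± 1.77 CPM. PSMB8, which replaces PSMB5, had 54 reads in all 32 libraries. PSMB8 and PSMB9 lie in the major histocompatibility region of chromosome 6, where 16 and 8 transcript rows carried their symbols, so that reads could be split among near-identical rows and both levels are uncertain. Of the tissue-specific subunits, PSMA8 of the testis had 1 read and PSMB11 of the thymus 3 reads, all in 1 library. PSMB10 was tested for labelled reads with large errors, 0.86 ± 0.64 (adjusted p = 0.481) in tagged cells with auxin and -1.38 ± 0.58 (adjusted p = 0.0912) in parental cells with vehicle. The PSMB10 gene lies at chr16:67934506-67936850. Its counted region of 56 bases holds 9 T positions, and 1 library had 0 labelled reads. Its stressed wells with vehicle had 1.01, 2.94, 1.51 and 2.77% labelled and its unstressed wells 9.85, 4.70, 2.26 and 3.56% in the parental line, and these overlapped.

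None of the base chaperones and activators passed the test of labelled reads in any stress comparison. Of the chaperones that escort the ATPases, PSMD5 had a log2 fold change of labelled reads of 0.36 ± 0.25 (adjusted p = 0.446) in tagged cells with auxin and 0.09 ± 0.24 (adjusted p = 0.833) in parental cells with vehicle. PSMD9 had 0.32 ± 0.22 (adjusted p = 0.435) in tagged cells with auxin and 0.30 ± 0.21 (adjusted p = 0.352) in parental cells with vehicle. PSMD10, also called gankyrin, had 0.32 ± 0.33 (adjusted p = 0.639) in tagged cells with auxin and 0.14 ± 0.32 (adjusted p = 0.805) in parental cells with vehicle. In tagged cells with vehicle PSMD5 stood at -0.21 ± 0.27 (adjusted p = 0.736), PSMD9 at 0.51 ± 0.22 (adjusted p = 0.149) and PSMD10 at 0.73 ± 0.35 (adjusted p = 0.215). In parental cells with auxin PSMD5 stood at 0.16 ± 0.27 (adjusted p = 0.775), PSMD9 at -0.01 ± 0.23 (adjusted p = 0.984) and PSMD10 at 0.11 ± 0.36 (adjusted p = 0.9), so estimates lay on both sides of 0. None of the 3 passed for labelled share either. PSME1 and PSME2 form the interferon-responsive cap. PSME1 had -0.68 ± 0.43 (adjusted p = 0.382) in tagged cells with auxin and -0.21 ± 0.38 (adjusted p = 0.76) in parental cells with vehicle. PSME2 had -0.15 ± 0.29 (adjusted p = 0.823) in tagged cells with auxin and -0.58 ± 0.26 (adjusted p = 0.123) in parental cells with vehicle. PSME3, a nuclear activator, ranged from -0.35 ± 0.22 in tagged cells with vehicle to 0.09 ± 0.22 in parental cells with auxin. PSME4, also called PA200, was at or above 0 in all 4, at most 0.28 ± 0.21 (adjusted p = 0.473) in tagged cells with auxin. A p that misses the threshold does not show that these genes did not change.

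The labelled share asks whether labelled reads changed relative to the unlabelled reads of the same gene and library. Labelled and unlabelled reads were each scaled to their own library totals. Its log2 changes are therefore relative to the typical gene and are not the changes of the labelled percentages themselves. Of 38 members, 8 fell and 0 rose in tagged cells with auxin, against 2.08% and 5.06% of all genes. Tagged cells with vehicle had 5 lower and 0 higher, against 2.05% and 5.02%. In parental cells with auxin 4 fell and 2 rose, against 2.69% and 5.39%, and in parental cells with vehicle 9 fell and 0 rose, against 3.36% and 4.81%. The median log2 change of the share was -0.35 (all genes -0.03) in tagged cells with auxin, -0.19 (all genes -0.03) in tagged cells with vehicle, -0.14 (all genes -0.03) in parental cells with auxin and -0.27 (all genes -0.07) in parental cells with vehicle. The share of PSMB6 fell in all 4, at -0.58 ± 0.16 (adjusted p = 0.00923), -0.61 ± 0.15 (adjusted p = 0.00227), -1.17 ± 0.16 (adjusted p = 7.5e-09) and -0.63 ± 0.14 (adjusted p = 0.000595), in that order. The PSMB6 call in tagged cells with auxin was lost without replicate 4 of unstressed tagged cells with auxin (adjusted p = 0.0668), with limma on log2 ratios (adjusted p = 0.0766) and with conversions per covered T (adjusted p = 0.0603). That in tagged cells with vehicle was lost with limma (adjusted p = 0.0503), and that in parental cells with vehicle with conversions per covered T (adjusted p = 0.138). PSMB4, PSMB7 and PSMD2 fell in 3, and PSMA7, PSMC3, PSMD3 and PSMD11 in 2. PSMA1, PSMA2, PSMB3, PSMD1 and PSMD4 fell in 1. The rises were PSMA3 (0.64 ± 0.21, adjusted p = 0.0408) and PSMA5 (0.90 ± 0.29, adjusted p = 0.0349), both in parental cells with auxin. Without the smallest library PSMA3 stood at 0.59 ± 0.21 (adjusted p = 0.0645) and PSMA5 at 0.89 ± 0.29 (adjusted p = 0.0387). In that refit 10 members fell in tagged cells with auxin (2.46% of all genes), 5 in tagged cells with vehicle (2.16%), 4 in parental cells with auxin (2.47%) and 9 in parental cells with vehicle (3.24%). PSMB4 and PSMB5 were gained in tagged cells with auxin. In parental cells with auxin PSMD13 was gained and PSMC3 was lost (-0.55, adjusted p = 0.0645). The PSMA3 call was lost without any 1 of replicates 1 and 2 of stressed parental cells with auxin or replicates 1, 2, 3 and 4 of unstressed parental cells with auxin (adjusted p of 0.0573 to 0.327), and the PSMA5 call without any 1 of replicates 2 and 3 of stressed parental cells with auxin or replicates 1 and 3 of unstressed parental cells with auxin (adjusted p of 0.0702 to 0.211). Both were also lost with conversions per covered T, with the compared libraries fitted alone and without centring on the typical gene (adjusted p of 0.0564 to 0.343). PSMA5 was lost with limma as well (adjusted p = 0.0755), and PSMA3 with no filter on low counts (adjusted p = 0.0561). Measured instead as conversions per covered T, the calls came to 2 members in tagged cells with auxin, 1 in tagged cells with vehicle and 0 in parental cells with vehicle. Of all 8980 genes, 291, 318 and 267 were called there. With limma on log2 ratios the members came to 1, 2 and 2 in the same 3 comparisons, beside 391, 431 and 354 of all genes. Labelled percentages of the stressed wells all lay below those of the unstressed wells for 21 of 38 members in tagged cells with auxin (13.7% of all genes), 13 in tagged cells with vehicle (11.3%), 17 in parental cells with auxin (16.7%) and 23 in parental cells with vehicle (22.9%).

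In total reads, with all 32 libraries fitted, 0 to 5 of 39 members passed in a stress comparison after 5 h of tunicamycin. A member that did not pass is not shown to be unchanged. In the tagged line 0 of 39 members passed with auxin, where 4.15% of all genes did, and 0 with vehicle, where 4.03% did; at an unadjusted p under 0.05 there were 0 members in each, and DESeq2 also called 0 in each. In parental cells with auxin 3 rose and 2 fell (10.5% of all genes in either direction), and in parental cells with vehicle PSMA5 rose and PSMA4 fell (-0.33 ± 0.09, adjusted p = 0.0164), where 12.9% of all genes passed. The PSMA4 call was lost without any 1 of replicates 2 and 3 of stressed parental cells with vehicle or replicates 1 and 2 of unstressed parental cells with vehicle (adjusted p of 0.054 to 0.1). The median log2 fold change of total reads was -0.02 (all genes -0.01) in tagged cells with auxin, -0.05 (all genes -0.01) in tagged cells with vehicle, -0.16 (all genes -0.003) in parental cells with auxin and -0.03 (all genes -0.01) in parental cells with vehicle.

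Of the 5 calls in parental cells with auxin, 4 were lost without the smallest library. PSMC3 had 1593, 231, 264 and 248 CPM in stressed and 213, 254, 227 and 288 CPM in unstressed parental cells with auxin. Its log2 fold change was 1.22 ± 0.37 (adjusted p = 0.0328) with that library and 0.02 ± 0.14 (adjusted p = 0.97) without it. PSMC5 gave 1.06 ± 0.33 (adjusted p = 0.0355) with and 0.11 ± 0.16 (adjusted p = 0.756) without it. PSMD8 gave 0.66 ± 0.21 (adjusted p = 0.0427) with and 0.09 ± 0.09 (adjusted p = 0.625) without it. PSMD7 gave -0.46 ± 0.15 (adjusted p = 0.0479) with and -0.28 ± 0.10 (adjusted p = 0.0728) without it. That call lay at the threshold and was lost in 28 of the 32 refits that left out 1 library, so its loss was not particular to the smallest one. PSMD11 kept its call. Its levels were 139, 342, 317 and 350.0 CPM in stressed and 480.0, 426, 491 and 373 CPM in unstressed parental cells with auxin. Its change was -0.61 ± 0.18 (adjusted p = 0.0238) with and -0.40 ± 0.12 (adjusted p = 0.028) without the library. All 4 stressed wells of PSMD11 lay below the unstressed wells, and leaving out either of replicates 1 and 3 of unstressed parental cells with auxin (adjusted p of 0.0738 to 0.0816) ended its call, as did fitting the compared libraries alone (adjusted p = 0.487). Without replicate 1 of unstressed parental cells with auxin the count was 0 of 39.

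With that library left out, more members passed in parental cells with vehicle, 7 higher and 11 lower, where 15.9% and 14.4% of all genes passed. The 11 were PSMA4, PSMB5, PSMB6, PSMB7, PSMC3, PSMC5, PSMD2, PSMD3, PSMD4, PSMD8 and PSMD13, with log2 fold changes from -0.48 ± 0.12 (adjusted p = 0.00405) for PSMC3 to -0.21 ± 0.08 (adjusted p = 0.0412) for PSMD8. The 7 were PSMA1, PSMA3, PSMA5, PSMD5, PSMD9, PSMD11 and PSMD14, from 0.28 ± 0.11 (adjusted p = 0.0497) for PSMD11 to 1.22 ± 0.29 (adjusted p = 0.00284) for PSMA5. The members' share of calls, 18 of 39, then stood beside 30.4% of all genes in either direction. In the tagged line the count without that library was still 0 of 39 in both stress comparisons, where 8.17% of all genes passed with auxin and 7.77% with vehicle.

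**Figure D4:**
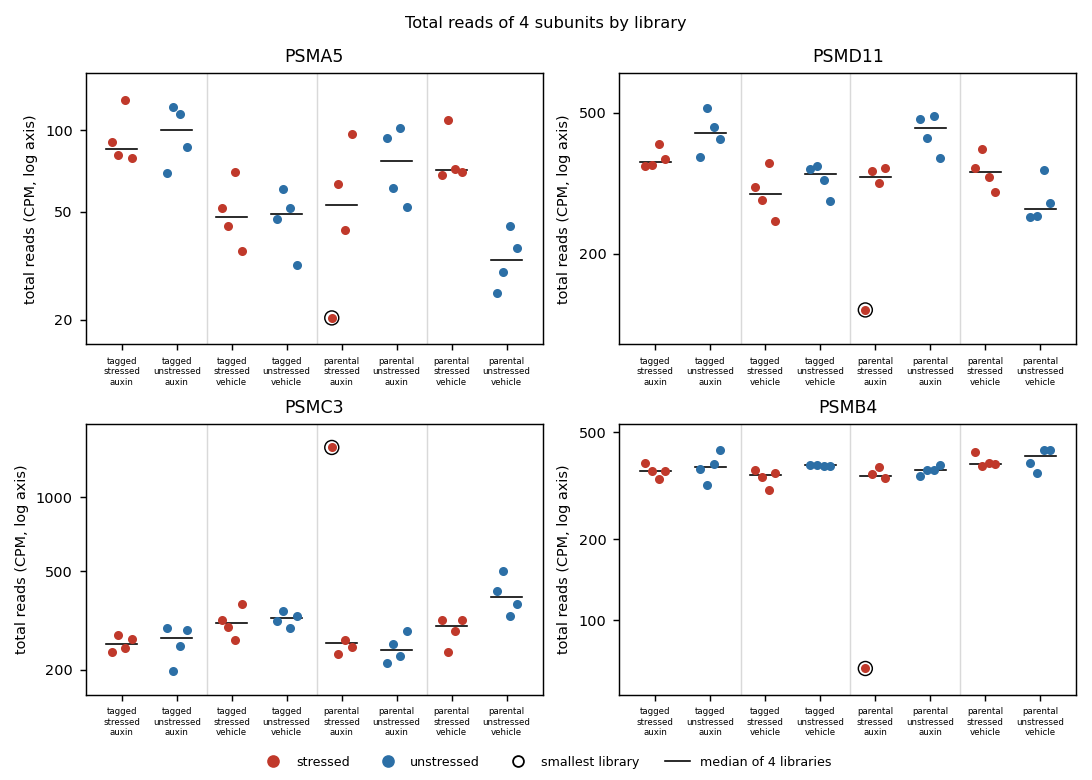
Total reads of PSMA5, PSMD11, PSMC3 and PSMB4 in CPM on a log axis, 1 point per library, with the median of each group of 4 as a line; stressed groups stand left of their unstressed groups. The smallest library is circled and lies apart from its group at 1593 CPM for PSMC3, 139 CPM for PSMD11 and 66.1 CPM for PSMB4.

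Auxin in the tagged line, which is meant to remove IGF2BP3, gave no member that passed the test of labelled reads. In unstressed tagged cells 0 of 38 passed (0.234% of all genes did), with 7 members at an unadjusted p under 0.05, and in stressed tagged cells 0 of 38 passed (0% of all genes), with 4 at that level. In the parental line, where auxin has no tagged protein to act on, 0 of 38 passed in unstressed cells (0.601% of all genes, 9 members unadjusted) and 0 in stressed cells (0.0111%, 2 members unadjusted). The labelled share gave 0 of 38 members in each of the 4 as well, with 0% and 0% of all genes called in stressed and unstressed tagged cells and 0% and 0.212% in stressed and unstressed parental cells. Unadjusted p under 0.05 were reached by 4 and 6 members of the tagged line and by 0 and 5 of the parental line, stressed before unstressed. DESeq2 on labelled reads and limma on the share also called 0 members in each. Without the smallest library, 4 members passed in labelled reads in unstressed parental cells, where 3.52% of all genes then passed. PSMD11 was higher with auxin, at 0.43 ± 0.13 (adjusted p = 0.0394). PSMA4 (-0.44 ± 0.13, adjusted p = 0.0438), PSMC3 (-0.71 ± 0.19, adjusted p = 0.015) and PSMC5 (-0.76 ± 0.16, adjusted p = 0.00218) were lower.

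Total reads gave a few auxin calls. In unstressed tagged cells PSMB10 fell, with 40.2, 26.2, 28.8 and 41.3 CPM with auxin and 64.7, 61.8, 51.8 and 53.8 CPM with vehicle (-0.77 ± 0.16, adjusted p = 0.0247), and it was the only one of 39 members to pass (0.679% of all genes). The groups did not overlap, but the call was lost without any 1 of replicates 2 and 3 of unstressed tagged cells with auxin or replicates 1, 2 and 4 of unstressed tagged cells with vehicle (adjusted p of 0.058 to 0.177). PSMB10 stood at -0.39 ± 0.15 (adjusted p = 0.302) in stressed tagged cells, -0.28 ± 0.15 (adjusted p = 0.251) in unstressed parental cells and 0.02 ± 0.16 (adjusted p = 0.976) in stressed parental cells. The difference of its auxin change between the lines was -0.48 ± 0.22 (adjusted p = 0.794) in unstressed cells and did not pass. In unstressed parental cells PSMA5 (1.18 ± 0.30, adjusted p = 0.0212) and PSMD11 (0.65 ± 0.17, adjusted p = 0.0256) rose with auxin. PSME2 (-0.50 ± 0.14, adjusted p = 0.0312) and PSMA4 (-0.45 ± 0.09, adjusted p = 0.00845) fell, where 7.2% of all genes passed. Without replicate 2 of unstressed parental cells with vehicle 0 of 39 members passed. PSMA5 and PSMD11 were each lost on leaving out any 1 of 5 libraries, PSME2 of 6 and PSMA4 of 1. PSMD11 had 480.0, 426, 491 and 373 CPM with auxin and 254, 255, 344 and 279 CPM with vehicle. This comparison and the stress comparison in parental cells with vehicle are set against the same 4 unstressed vehicle wells, in which PSMA5 was lowest, so their calls for PSMA5 and PSMA4 are not separate evidence. In stressed cells 0 of 39 members passed with auxin in the tagged line (0.0179% of all genes, 8 members unadjusted, 0 by DESeq2) and 0 in the parental line (0.0179%, 9 members unadjusted, 0 by DESeq2). Without replicate 4 of stressed parental cells with auxin, 4 members passed in that parental comparison. The share of all genes in that refit is not given here, so the 4 have no background beside them.

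These auxin counts also moved when the smallest library was left out, although it belongs to neither unstressed comparison. In unstressed tagged cells 7 members were then higher and 8 lower (16.1% of all genes in either direction), and in unstressed parental cells 7 higher and 11 lower (25.1%). Tagged cells had PSMD14 at 0.62 ± 0.14 (adjusted p = 0.00779), PSMA1 at 0.57 ± 0.16 (adjusted p = 0.0196) and PSMB7 at -0.37 ± 0.09 (adjusted p = 0.00835). Parental cells had PSMD14 at 0.55 ± 0.14 (adjusted p = 0.00639), PSMA1 at 0.62 ± 0.16 (adjusted p = 0.00728) and PSMC3 at -0.72 ± 0.12 (adjusted p = 0.000293). In the stressed cells the count was still 0 of 39, where 2.51% of all genes passed in the tagged and 0.0268% in the parental line.

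Between the lines, 0 of 39 members differed in total reads, in unstressed cells with vehicle (0.241% of all genes, 5 members unadjusted) or in stressed cells with vehicle (0.411%, 7 members unadjusted); DESeq2 called 0 in each. Without the smallest library PSMD9 was higher in tagged than parental unstressed cells (0.51 ± 0.09, adjusted p = 0.00115) and PSMD4 in stressed cells (0.31 ± 0.09, adjusted p = 0.0459), 1 member in each, where 1.31% and 3.45% of all genes then passed, unstressed before stressed. The tests of whether a change itself differed gave no member either. The stress change with vehicle, tagged minus parental, passed for 0 members in total reads (0% of all genes, 3 members unadjusted), 0 in labelled reads (0%, 2 unadjusted) and 0 in labelled share (0%, 2 unadjusted). DESeq2 on total and on labelled reads and limma on the share called 0 as well. The stress change in tagged cells, auxin minus vehicle, which asks whether auxin altered the response, gave 0 in total reads (0%, 0 unadjusted, 0 by DESeq2). The auxin change, tagged minus parental, gave 0 in unstressed cells (0.0179%, 4 unadjusted, 1 by DESeq2, which called 29 of all genes) and 0 in stressed cells (0%, 15 unadjusted, 2 by DESeq2, which called 146). Without replicate 4 of stressed parental cells with auxin, 8 members passed in stressed cells, and the share of all genes in that refit is not given here. Without the smallest library, PSMD1 (0.69 ± 0.12, adjusted p = 0.002) and PSMD9 (-0.59 ± 0.13, adjusted p = 0.0137) passed for the auxin change in unstressed cells, where 0.59% of all genes did.

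Proteasome mRNAs were less labelled than most genes without stress. In unstressed parental cells with vehicle the median labelled percentage of the 38 members was 9.86%, against 18.95% over all genes tested (middle 50% of genes 11.5% to 29.8%), and 35 of the 38 lay below that median. Counted regions differ in their number of T positions, and conversions per covered T gave the same order, a median of 0.781% for the members and 1.55% for all genes, with 35 members below. The lowest labelled percentages were those of PSME1 (3.38 ± 1.56%), PSMB7 (4.71 ± 0.314%) and PSMD8 (5.05 ± 1.00%), with PSMB10 (5.09 ± 3.32%) next to PSMD8 and within its spread. The highest were the base chaperone PSMD5 (24.8 ± 5.94%), PSMD11 (21.6 ± 2.91%) and the ATPase PSMC6 (21.1 ± 3.45%), which did not differ from one another beyond their spread. Across the 8 groups the members' median ran from 5.63% in stressed tagged cells with auxin to 9.86% in unstressed parental cells with vehicle, and 34 to 36 members lay below the median of all genes in every group.

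**Figure D5:**
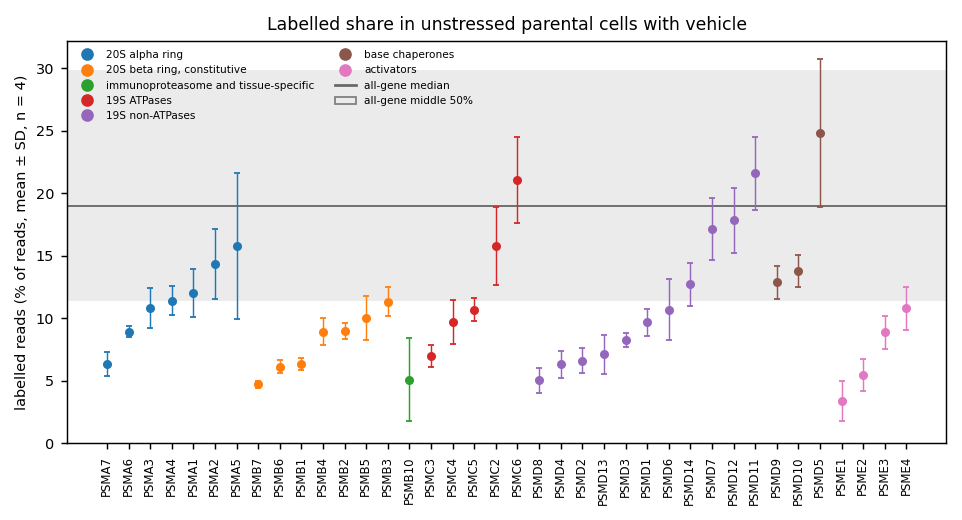
Labelled percentage (mean and SD of 4 libraries) of 38 members in unstressed parental cells with vehicle, by subunit class; the line is the median of all genes tested, 18.95%, and the band their middle 50%. All but 3 members lie below the line.

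Other genes of the ubiquitin-proteasome pathway were read from a list of 35, of which 34 were tested for total and 33 for labelled reads, with the percentages of all genes as given above for each comparison. In labelled reads 3 rose and 1 fell in tagged cells with auxin, 3 rose and 2 fell in tagged cells with vehicle, 5 rose and 3 fell in parental cells with auxin, and 4 rose and 3 fell in parental cells with vehicle. The list's median log2 fold change of labelled reads lay between 0.008, in tagged cells with vehicle, and 0.097, in parental cells with auxin. Without the smallest library 3 to 7 of the list rose and 1 to 4 fell in a comparison.

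VCP, the ATPase that extracts ubiquitylated proteins from the endoplasmic reticulum, rose in labelled reads in all 4 (log2 fold changes of 0.86 to 1.14), and NFE2L1 rose in all 4 as well (0.52 to 0.82); both did so without the smallest library too. ADRM1, a ubiquitin receptor of the 19S particle, fell in 3 (-0.61 to -0.67). In total reads VCP (0.27 to 0.48) and ZFAND2A, a stress-induced partner of the 19S particle (1.14 to 1.85, and 1.14 to 1.62 without the smallest library), rose in all 4. POMP, the chaperone of 20S assembly, fell in parental cells with vehicle (-0.44), with 621 ± 71.0 CPM in stressed and 840.0 ± 76.0 CPM in unstressed wells. Total NFE2L1 passed in parental cells with auxin (0.49), but not there without the smallest library, when it passed in parental cells with vehicle (0.34). Labelled NFE2L1 was higher in the same stressed groups in which labelled PSMB4 and PSMB6 were lower. The NFE2L1 protein was not measured in these libraries, and a link between these changes was not tested.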

How the data were processed

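Per the file headers, the deposited tables give for each of 95582 transcripts a counted region and its reads, reads with T-to-C conversions, T positions covered and conversions; reads and labelled reads are whole counts, not normalized, and carry no molecular identifiers, so intervals and floors cover counting error only. The genome build, per the submitters' processing notes, was hg38; aligner, caller and annotation versions are not given in the sources used here. No column belonged to a sample outside the series (0 columns). Transcripts were named from RefSeq (40006 of 40767 NM, 6326 of 33066 XM and 0 of 21749 other identifiers matched), and unmatched rows, with 36.9% to 43.5% of reads, stayed out of all totals. The row with the most reads stood for a gene, and 72 genes identical to another in every count were dropped.

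Total and labelled reads were fitted with edgeR 4.0.16 (R 4.3.3) by the quasi-likelihood F-test with TMM scaling, filterByExpr and 1 coefficient per group over all 32 libraries. Labelled share was the interaction of labelled and other reads with group, with a term per library and each kind of reads scaled by its own TMM factors. P-values were Benjamini-Hochberg adjusted over all genes tested (11186 for total reads, 8980 for labelled reads and share). Alternatives used DESeq2 1.42.0 and limma 3.58.1; descriptions used pandas 2.3.3 and figures matplotlib 3.10.9. CPM is counts per 1 M TMM-scaled gene reads. The labels name separate wells but no separate cultures, so p-values measure the spread between wells. No 2 libraries of a group agreed within sampling noise (chi-square over its degrees of freedom at least 2.08 in 48 pairs).

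The members and gene lists were chosen with earlier results of these data known. A few non-member genes of the lists are not reported here by name. Members always described were PSMB5 to PSMB10, PSMA8, PSMB11, PSME1 to PSME4, PSMD5, PSMD9, PSMD10, PSMD2, PSMD4, PSMD11 and PSMD14, with every member called in any test; others were named when chosen by subunit class after their values were seen. On simulated counts for the stress comparison in parental cells with vehicle, 88% and 82% of genes changed 2-fold up and down were recovered for total reads over 11186 genes, 74% and 58% for labelled reads over 8980 genes, and 48% and 28% for labelled share over 3000 genes. Of genes changed 1.5-fold up and down, 24% and 18% were recovered for total reads over the same 11186 genes, 18% and 12% for labelled reads over 8980 and 2% and 4% for labelled share over 3000. The simulation kept the real library sizes but gave every gene the same dispersion and every library the same gene proportions, changed genes aside. The real spread, including that from the smallest library, was not modelled, so recovery in the real fit may differ.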

Additional observations from a re-analysis of the deposited data

Results flagged for a closer look

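In 6 of 96 groups of 4 wells examined, 1 library lay further from the rest than the critical value of Dixon's test allows, and chance alone flags about 1 group in 20. The labelled percentage of PSMB4 was 21.2% in replicate 1 of stressed parental cells with auxin (11 of 52 reads, 95% Wilson interval 12.2% to 34.0%), against 4.26% to 5.19% in the other 3 wells. In replicate 3 of stressed parental cells with vehicle PSMB4 was lowest, at 4.55% (72 of 1583 reads, 3.63% to 5.69%), against 5.34% to 5.48%. PSMD3 was highest in replicate 1 of unstressed tagged cells with vehicle, at 9.55% (159 of 1665 reads, 8.23% to 11.1%), against 7.95% to 8.13%. Total PSMA5 was highest in replicate 2 of stressed parental cells with vehicle, at 109 CPM against 68.4 to 72.1 CPM. In replicate 1 of stressed parental cells with auxin, the smallest library, total PSMC3 stood at 1593 CPM against 231 to 264 CPM and total PSMD11 at 139 CPM against 317 to 350.0 CPM. That library also had fewer T positions covered per read (15.1, against 20.3 to 24.1 in the others) and more reads on transcripts with no gene symbol (43.5%, against 36.9% to 38.3%), and the part of either in these values was not tested.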

How the results depend on the processing

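For 32 counts of called members, 216 of 283 values under other settings were within 1.5 times the reported count and 67 were not; the cause was not tested. Of 70 called member results none changed direction, 37 kept their call under every setting that used all libraries, 26 in every refit that left out 1 library, and 19 in both (15 of 30 for labelled reads, 3 of 28 for labelled share and 1 of 12 for total reads). Leaving out 1 library, labelled-read counts under stress were 4 to 9 members in tagged cells with auxin, 4 to 6 in tagged cells with vehicle, 4 to 6 in parental cells with auxin and 9 to 14 in parental cells with vehicle. The same ranges for labelled share were 3 to 10, 4 to 6, 3 to 7 and 5 to 10, and for total reads 0 to 0, 0 to 0, 0 to 5 and 1 to 18. For auxin, total reads gave 0 to 15 in unstressed and 0 to 0 in stressed tagged cells, and 0 to 18 in unstressed and 0 to 4 in stressed parental cells, and labelled reads 0 to 4 in unstressed parental cells. Total reads gave 0 to 1 between the lines in unstressed and in stressed cells, and for the auxin change between lines 0 to 2 in unstressed and 0 to 8 in stressed cells. The counts not listed stayed at 0. Apart from the refit without the smallest library, shares of all genes in these refits are not given here, so the ranges have no background beside them.

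Counts that moved are given in the order tagged with auxin, tagged with vehicle, parental with auxin, parental with vehicle unless named. A number in brackets after a count, here and below, gives all genes called in the same fit. Tested were 11186 genes for total reads and 8980 for labelled reads and share. Fits with no low-count filter or with the longest counted region tested other numbers of genes. Labelled reads scaled by total reads gave 17 (1267), 11 (1142), 15 (1711) and 21 (2365) under stress and 1 (30) for auxin in unstressed parental cells. The share without centring on the typical gene gave 21 (1113), 15 (991), 18 (1536) and 25 (1988), where the median of all genes lay at -0.31, -0.28, -0.38 and -0.40. Conversions per covered T gave 2 (291), 1 (318) and 0 (267) for the share, and limma 1 (391), 2 (431) and 2 (354), parental cells with auxin not having moved in either. DESeq2 on total reads gave 4 (1969) for stress in parental cells with vehicle, 6 (562) for auxin in unstressed tagged cells, and 1 (29) in unstressed and 2 (146) in stressed cells for the auxin change between lines. With no low-count filter, parental cells with auxin had 2 (997) for total reads under stress, and labelled reads 2 (205) for auxin in unstressed parental cells. With the longest counted region per gene the last was 1 (55).

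Fitting the compared libraries alone gave, for total reads, 0 (118) in parental cells with auxin and 9 (2230) with vehicle under stress, 17 (2086) in unstressed and 15 (1307) in stressed tagged cells and 12 (1643) in unstressed parental cells for auxin, 2 (370) between the lines in stressed cells and 1 (33) for the unstressed auxin change between lines. For labelled reads it gave 2 (498) for stress in parental cells with auxin, and for auxin 3 (271) in unstressed tagged and 3 (297) in unstressed parental cells. The leading within-group axis held 67.9% of the within-group variance (39.8% without the smallest library, which made up 65.3% of it). As a covariate it gave, for total reads, 1 (1214), 1 (1082), 22 (4587) and 21 (4233) under stress, 18 (2786) and 14 (1787) for auxin in unstressed and stressed tagged cells, 20 (3488) and 22 (3686) in unstressed and stressed parental cells, 5 (587) and 9 (1455) between the lines in unstressed and stressed cells, and 10 (1038) for the stress change between lines. It gave 3 (252) and 24 (4165) for the auxin change between lines in unstressed and stressed cells. For labelled reads it gave 11 (1749) for stress in parental cells with auxin, 5 (356) and 4 (553) for auxin in unstressed tagged and parental cells, and 1 (67) for the stress change between lines. With the axis recomputed without the smallest library, an alternative chosen after seeing the data, total reads gave 4 (1652), 1 (1374), 3 (1747) and 22 (4683), then 21 (3278) and 19 (2492) for auxin in unstressed and stressed tagged cells, and 21 (3929) in unstressed parental cells. It gave 12 (1055) and 16 (2083) between the lines, 15 (1713) for the stress change between lines, and 8 (611) and 11 (1249) for the auxin change between lines. Labelled reads gave 7 (1352) for stress in parental cells with auxin, 5 (432) and 4 (619) for auxin in unstressed tagged and parental cells, and 1 (99) for the stress change between lines.

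The replicate block gave 2 (1064) for total reads in parental cells with auxin under stress and 1 (61) for labelled reads for auxin in unstressed parental cells, and no other count moved by over 1.5 times. Same-numbered wells did not deviate together (48 of 112 pairs correlated over 0.1, median 0.047, lowest -0.604, against a median of -0.027 for other numbers), and 10 of 32 libraries correlated best with their own number. Depth limits what could be seen: a member tested for labelled reads had 16 to 4706 reads in a library.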
